A study of Mus musculus with 4 samples.

Results

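The knockdown of Arglu1 in vehicle-treated N2a cells was described from 2 of the 4 libraries of the study, siControl Veh and siArglu1 Veh. N2a (Neuro-2a) is a neuroblastoma line from the mouse. Transfection lasted 48 h, either with a non-targeting siRNA control (siControl) or with siRNA directed at Arglu1 (siArglu1), and vehicle (ethanol) was then given for 4 h. The remaining pair, siControl Dex and siArglu1 Dex, received 100 nM dexamethasone (Dex), a synthetic glucocorticoid, in place of vehicle, shares no library with the vehicle pair, and is given here only beside it. mRNA of 3 cultures was pooled for each library, so that each group had 1 library, and no p-value could be given for any difference. The study used a single siRNA against Arglu1 for this knockdown, so that effects of lower Arglu1 and other effects of that siRNA cannot be told apart in these libraries. Further experiments of the study used independent siRNAs against Arglu1 and are not analysed here.

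ARGLU1 is a nuclear protein with an arginine-rich and a glutamate-rich part. It has been described both as a coactivator of nuclear receptors and as a partner of splicing factors, so that both the level of transcripts and the choice of exons are of interest once it is depleted. The question of the comparison was which genes, gene families and exons differed when Arglu1 was low and no glucocorticoid had been added. Expression was measured as reads per gene, and splicing as percent spliced in (PSI), which is 100 when an exon or splice site is always used and 0 when it never is.

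The siControl Veh library held 66074574 reads on genes and the siArglu1 Veh library 66590878. A log2 ratio is here siArglu1 over siControl, on reads scaled to the library by TMM, and a gene passed the size rule at a log2 ratio of 0.81 or more in either direction. Only the size of the ratio decides here, without any test. The 12497 genes with at least 75 reads over the 4 libraries were compared. Intervals are exact 95% intervals of the 2 read numbers and cover counting error only. Arglu1 itself was counted with 10165 reads under siControl and 2637 under siArglu1, a log2 ratio of -1.92 (interval -1.99 to -1.86). Defining markers of the sympathetic neuroblast, from which this tumour type arises, were present in both libraries. Hand2 had a cRPKM (the authors' level of a gene, corrected for depth and for how many of its positions can be mapped) of 219 in siControl Veh and 328 in siArglu1 Veh. Markers of other cell types were mostly low or absent. Of the 17 fibroblast and mesenchymal markers, 4 (Col3a1, Lum, Thy1 and Twist1) had no read in either library, and the summed cRPKM of the list, most of it Fn1, was 57.0 in siControl Veh and 55.2 in siArglu1 Veh. Of 11 Schwann cell and glial markers, Sox10 had 2 reads in each library, and the summed cRPKM of 74.3 and 126 was almost wholly Pmp22, with a log2 ratio of 0.83. The 12 immune and endothelial markers summed to 1.67 and 1.06, with Ptprc, Cd14 and Kdr at 0 reads. The part of other cell types in the results was not tested.

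The length of the gene moved with the log2 ratio, and it was therefore described before any gene family. At the size rule, 875 genes were higher after knockdown (7.00% of the genes compared) and 1096 were lower (8.77%), together 15.8%. Their lengths differed. The median mappable length, that is, the number of positions to which a read could be assigned, was 1917 nt for the higher genes, 3866 nt for the lower genes and 2708 nt for all genes. Genes were put in 10 groups of equal size by length. In the shortest group, up to 1003 nt, 155 genes were higher and 53 lower, and the median log2 ratio was 0.33. In the longest group, from 5954 nt, 20 were higher and 259 lower, and the median was -0.44. The median was lower in each group than in the one before it. In the Dex pair the medians of the same end groups were 0.14 and -0.22. Across genes, which are not independent replicates, Spearman's rho of the log2 ratio with length was -0.398 in vehicle and -0.229 in Dex. With 1 library per group, a trend that arises in the cells and one that arises when libraries are made cannot be told apart.

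The trend on length was removed with a lowess curve over all genes, and the remaining value is called the length-adjusted log2 ratio. After this step, 750 genes were higher (6.01%) and 886 lower (7.10%), together 13.1% of the 12484 genes with a length. The same size was passed in the same direction before and after by 1380 genes, 631 of them higher and 749 lower. The median length became 2732 nt for the higher and 2551 nt for the lower genes. Properties that go with length kept a weaker relation with the adjusted values. Spearman's coefficient was -0.14 for coding length (10229 genes), -0.119 for the number of exons and -0.119 for the span of the gene on the genome (12317 genes each), against -0.406, -0.323 and -0.344 before adjustment. For GC percent of the longest annotated transcript rho was 0.0914 before and 0.0375 after. Values and counts of the Dex pair are given below without length adjustment unless stated otherwise. The plot of log2 ratios against length shows the slope and its removal.

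**Figure D1:**
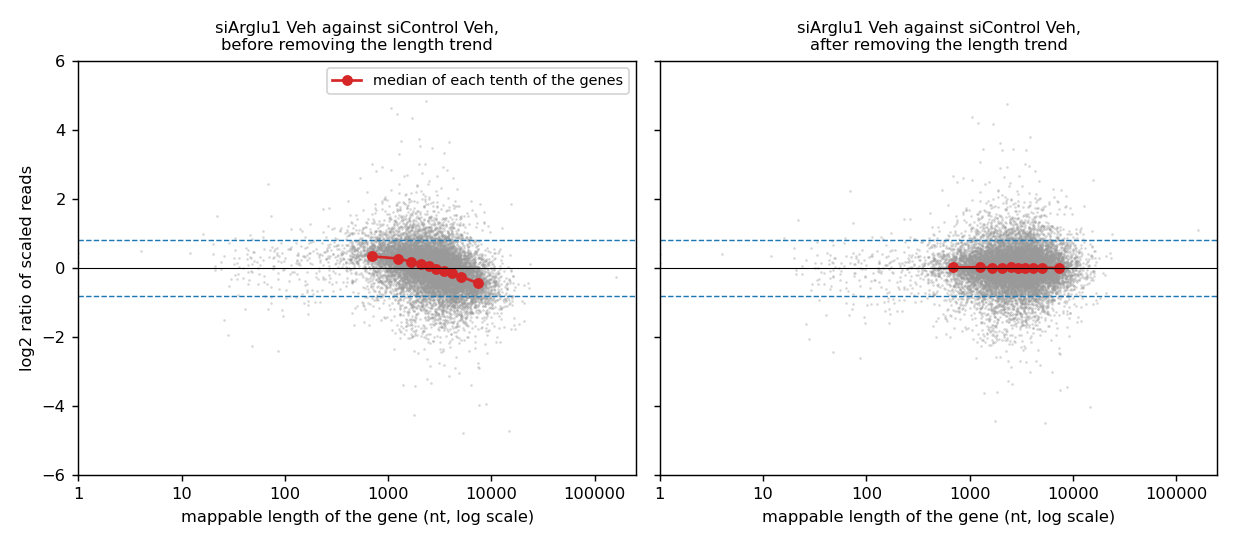
Log2 ratio of siArglu1 Veh over siControl Veh (vertical axis) against the mappable length of the gene in nt (horizontal axis, log scale), before (left) and after (right) removal of the length trend. Each grey point is a gene, red points are medians of 10 groups of equal size ordered by length, and dashed lines stand at 0.81 and -0.81. The medians go from 0.33 to -0.44 on the left and lie close to 0 on the right.

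Across the 61 gene lists described, the median log2 ratio of a list went with its median length (Spearman's rho of -0.664 over lists, which differ in size and share some genes), and after adjustment this value was -0.132. Before adjustment, 17 lists had a median at least 0.25 below that of all genes and 8 lists at least 0.25 above it. After adjustment these counts were 7 and 3. The 3 highest medians after adjustment belonged to smooth muscle contractile genes, striated muscle sarcomere genes and protocadherins. The 7 lowest belonged to interferon-stimulated genes, glycolysis, hedgehog pathway and ciliary transport, histone acetyltransferases, CLK, SRPK and DYRK kinases, cohesin with its loaders, and hnRNP proteins.

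**Figure D2:**
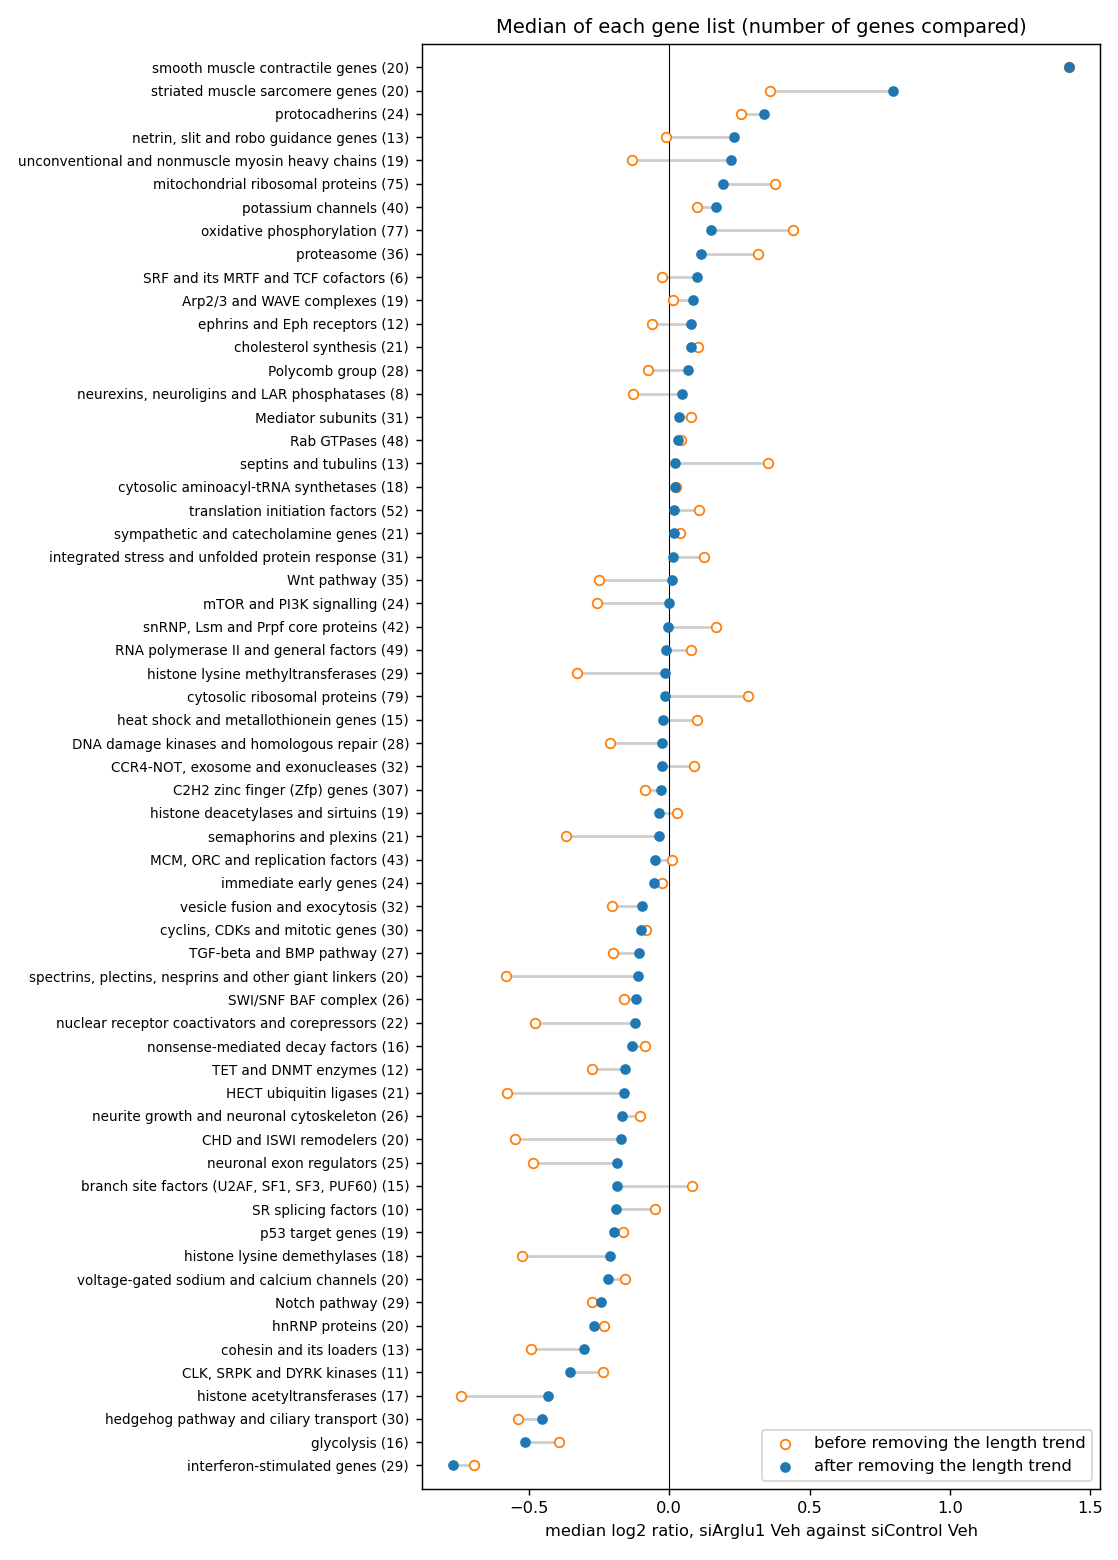
Median log2 ratio (horizontal axis) of siArglu1 Veh over siControl Veh for 61 gene lists, with the number of genes compared in brackets. Open circles are medians before, filled circles after removal of the length trend, and a grey line joins both. Smooth muscle contractile genes lie at 1.42 before and 1.43 after, and interferon-stimulated genes at -0.70 and -0.77, whereas spectrins and other giant linkers move from -0.58 to -0.11.

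Smooth muscle contractile genes held the 3 largest rises among genes whose cRPKM averaged 2 or more. They encode the actin, myosin light chain, calponin and tropomyosin of the contractile apparatus, and many of them are known targets of the serum response factor SRF, which binds a short element named the CArG box and works with cofactors of the MRTF family. Of 20 members compared, 13 were higher and 1 was lower, beside 7.00% and 8.77% of all genes, and the median log2 ratio was 1.42 beside 0.0038 for all genes. After adjustment, 14 were higher and 1 lower. Without adjustment the Dex pair also gave 13 higher and 1 lower. In bulk libraries a change in the share of cells that express a gene and a change in RNA per cell cannot be told apart.

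The actins and their partners had few reads in siControl Veh. Acta2, the smooth muscle alpha-actin, went from 432 reads under siControl to 8739 under siArglu1, a rise of 20.5-fold (log2 ratio 4.36, interval 4.22 to 4.50). Actg2, the enteric smooth muscle actin, had 91 and 1974 reads (4.45, interval 4.16 to 4.78). Acta2 and Actg2 are close copies, so that their separate reads are uncertain where a read matches both. Myl9, a regulatory light chain of myosin, went from 269 to 6654 reads, 25.04-fold (4.65, interval 4.47 to 4.83). Cnn1, calponin 1, went from 6 to 193 reads, so that its log2 ratio of 4.83 had an interval from 3.88 to 6.49. These 4 genes were low in the control library and between 1.25 cRPKM (Cnn1) and 94.3 cRPKM (Myl9) after knockdown.

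Members that were already abundant were higher by less. Cnn2 rose from 23.5 to 122.9 cRPKM (log2 ratio 2.42), Csrp1, a LIM protein, from 46.8 to 175 (1.94), and Myl6, the essential myosin light chain, from 596 to 1919 (1.72). The mappable length of Myl6 was 266 nt only, so most of its transcript could not be used to count reads. Flna, the actin cross-linker filamin A, rose by 1.30 although its length of 8398 nt lies in the longest group, whose median was -0.44, and its length-adjusted value was 1.77. Tpm2 had a log2 ratio of 1.55, Tpm1 of 1.21 and Pdlim7 of 1.10, and Tgfb1i1, also named Hic-5, one of 2.65. Myh11, the smooth muscle myosin heavy chain, passed the size as well. Tagln (80 and 129 reads, 0.71) did not pass, nor did Cald1 (0.53), Synpo2 (0.50), Smtn (0.24), Des (-0.18) or Vcl (-0.23).

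Because SRF acts through the CArG box, the 250 bases before the start of these genes were searched for it in RefSeq sequence (GRCm38.p6) on both strands, which for this element hold the same matches. Of the 20 members compared, 15 had a promoter in the table, and 4 of them (26.7%) held a match, beside 1.56% of the 9291 compared genes with a promoter. The list was drawn up from genes many of which are known SRF targets, so that a higher share was set by its choice and says nothing of the knockdown. Of the members that rose, 10 had a promoter in the table, and 3 of these held a match. The 4 are printed because they show where the element lies relative to the start. Each runs 5′ to 3′ on the strand of the gene and ends at the base before the start, with the match in capitals.
Cnn2 (chr10:79988350-79988599, plus strand): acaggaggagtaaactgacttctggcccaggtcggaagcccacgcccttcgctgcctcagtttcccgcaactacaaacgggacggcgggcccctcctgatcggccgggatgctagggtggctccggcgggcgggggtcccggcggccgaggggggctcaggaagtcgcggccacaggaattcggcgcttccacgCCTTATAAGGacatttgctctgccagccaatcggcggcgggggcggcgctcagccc
Myl9 (chr2:156775214-156775463, plus strand): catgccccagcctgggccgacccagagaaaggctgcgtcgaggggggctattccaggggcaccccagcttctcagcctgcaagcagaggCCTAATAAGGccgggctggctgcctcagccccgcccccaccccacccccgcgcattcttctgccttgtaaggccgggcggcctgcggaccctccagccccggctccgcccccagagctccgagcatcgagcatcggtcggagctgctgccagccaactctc
Myl6 (chr10:128493010-128493259, minus strand): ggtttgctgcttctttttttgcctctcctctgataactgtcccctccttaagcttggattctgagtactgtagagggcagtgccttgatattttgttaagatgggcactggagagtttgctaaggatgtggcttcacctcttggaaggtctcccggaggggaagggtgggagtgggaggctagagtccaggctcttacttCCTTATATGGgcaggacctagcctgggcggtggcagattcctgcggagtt
Vcl (chr14:20929148-20929397, plus strand): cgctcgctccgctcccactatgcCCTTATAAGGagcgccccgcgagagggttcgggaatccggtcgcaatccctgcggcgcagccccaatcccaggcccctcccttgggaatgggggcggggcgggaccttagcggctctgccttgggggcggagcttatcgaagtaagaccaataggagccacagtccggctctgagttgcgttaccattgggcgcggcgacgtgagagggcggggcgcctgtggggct
The match begins 56 bases before the start in Cnn2, 161 in Myl9, 50 in Myl6 and 227 in Vcl. Cnn2, Myl9 and Myl6 were among the members that rose, and Vcl was not. Of all genes that were higher after length adjustment, 3.90% of the 539 with a promoter held a match, and of those that were lower, 1.5% of 601. A match is a description of the sequence, and binding was not measured here.

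Actins of striated muscle rose too. Of 20 sarcomere genes compared, 8 were higher and 3 lower, beside 7.00% and 8.77% of all genes (median 0.36, with 9 below 0). After adjustment 10 were higher and 3 lower, beside 6.01% and 7.10% of all genes (median 0.80, with 6 below 0). The median of this list thus depended on the adjustment. Actc1, the cardiac actin, had 11 and 150 reads (log2 ratio 3.68, interval 2.91 to 4.82), Acta1, the skeletal actin, 35 and 348 (3.30, interval 2.83 to 3.88), Asb2 31 and 345 (3.46) and Nexn 244 and 994 (2.04). All of them were also higher in the Dex pair, by 3.80, 3.38, 3.80 and 2.28. Whether reads of the other actin genes were counted for Actc1 and Acta1 was not tested. Of SRF and its cofactors, none of 6 was higher and 2 were lower, against 1 higher and 1 lower after adjustment and none in either direction in the Dex pair. These are too few genes to set beside the 7.00% and 8.77% of all genes. Srf itself had 4949 and 8103 reads, a log2 ratio of 0.73 and a length-adjusted value of 0.89. Mkl2, the cofactor MRTF-B, fell by 1.39, and in the Dex pair its log2 ratio was -0.735. Of 24 immediate early genes, which include targets of SRF with its TCF cofactors, 3 were higher and 3 lower, with a median of -0.026. Egr1 fell by 1.76, from 2117 to 613 reads, and Cyr61 rose by 1.64. In the Arp2/3 and WAVE complexes, which nucleate branched actin, 3 of 19 members were higher (Arpc4 by 1.41, Arpc5 by 1.23 and Arpc1b by 1.08) and 2 were lower, among them Wasf1 by 1.45. The giant linkers of the cytoskeleton are long genes. Of 20, with a median length of 9069 nt, 19 had a log2 ratio below 0, and 11 after adjustment. Syne1 (-1.99, adjusted -1.60), Ank3 (-1.81, adjusted -1.30) and Ahnak (-1.74, adjusted -1.13) stayed beyond the size.

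**Figure D3:**
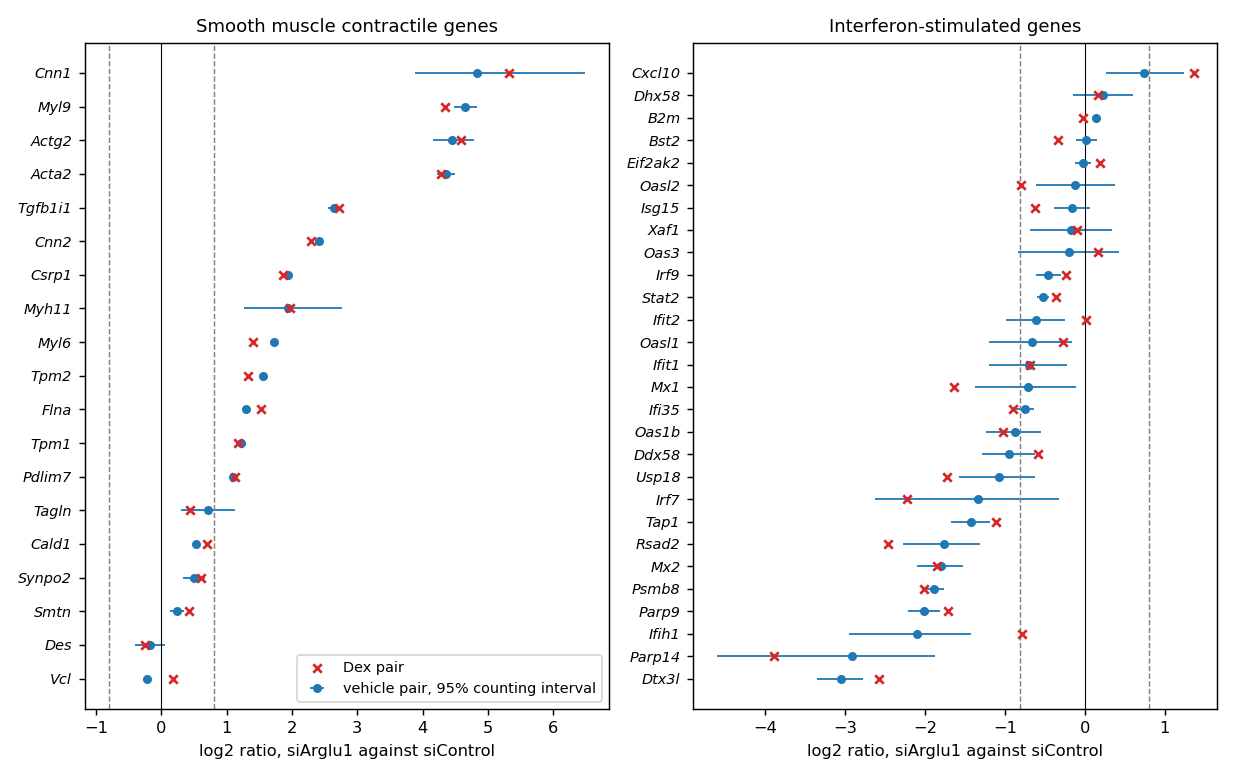
Log2 ratio of siArglu1 over siControl (horizontal axis) for the members compared of 2 lists, of which 1 in each is not shown. Blue points are the vehicle pair with the 95% counting interval of the reads, red crosses are the Dex pair, and dashed lines stand at 0.81 and -0.81. Of the smooth muscle contractile genes 13 lie beyond the upper line in vehicle, and of the interferon-stimulated genes 12 lie beyond the lower line.

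Interferon-stimulated genes moved the other way. Interferons act on receptors at the cell surface that activate transcription factors, and the genes so induced encode sensors of viral RNA, antiviral effectors and parts of antigen processing. Of 29 members compared, 12 were lower and none was higher, beside 8.77% and 7.00% of all genes, with a median of -0.70. After adjustment 14 were lower and none higher, with a median of -0.77. In the Dex pair, without adjustment, 12 were lower and 1 was higher, with a median of -0.69 (adjusted -0.74). Dtx3l, a ubiquitin ligase that pairs with PARP9, went from 949 to 112 reads, a fall to 12.1% (log2 ratio -3.05, interval -3.36 to -2.78). Parp9 had 1064 and 260 reads (-2.01, interval -2.21 to -1.81). Psmb8, an immunoproteasome subunit, went from 26.3 to 6.92 cRPKM (-1.89, interval -2.03 to -1.76), and Mx2, a dynamin-like antiviral GTPase, from 462 to 130 reads (-1.80, interval -2.10 to -1.52). The remaining members past the size, named after their values were seen, were Parp14, Ifih1, Rsad2, Tap1, Irf7, Usp18, Ddx58 and Oas1b. Irf2, a factor of the interferon regulatory family outside the list, fell by 2.07. Not every member was low. Among members named after their values were seen, B2m (8351 and 9102 reads) had a log2 ratio of 0.15, Isg15 (358 and 315 reads) of -0.16, and the transducer Stat2 of -0.52. Most members had few reads, and intervals such as that of Irf7, with 27 and 10 reads, span from -2.62 to -0.32.

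Among the genes of translation and energy, the length-adjusted values lay closer to 0. Of 79 cytosolic ribosomal protein genes, 74 had a log2 ratio above 0 with a median of 0.28, and after adjustment 43 lay below 0 with a median of -0.015. Their median mappable length of 391 nt lies in the shortest of the 10 length groups. The direction of this family thus depended on the adjustment, and its median in the Dex pair was 0.019 before adjustment. Rps27l alone passed the size, with 4333 and 10606 reads (1.31, adjusted 0.96). Mitochondrial ribosomal proteins had a median of 0.38 and 0.19 after adjustment, and oxidative phosphorylation genes 0.44 and 0.15, with 5 of 77 higher before and 2 after (Sdhc, a succinate dehydrogenase subunit, and Uqcr10). Of all genes, 7.00% were higher before and 6.01% after adjustment. In the proteasome, with a median of 0.32 and 0.11, Psmb7 rose from 13048 to 39284 reads (1.61, interval 1.58 to 1.64). Psmb7 is the constitutive form of a catalytic subunit, and Psmb8 takes the place of another one in the immunoproteasome. Glycolysis stood apart, with 13 of 16 genes below 0 (median -0.39) and 15 after adjustment (median -0.52), although 2 passed the size before and 1 after. Hk2, a hexokinase, fell by 1.01 but did not pass after adjustment (-0.72). The member past the size in both, named after its values were seen, was Gapdh, which had 56 and 28 reads over 167 mappable positions (-0.96, adjusted -1.21) and has many near-identical copies. Eno1 (-0.40, adjusted -0.75), Pgam1 (-0.38, adjusted -0.62) and Pfkl (-0.69, adjusted -0.58) did not pass. Eno1 and Pgam1 have near-identical copies and mappable lengths of 402 and 155 nt. The median of glycolysis in the Dex pair was -0.53 before adjustment and -0.61 after it. Aminoacyl-tRNA synthetases held no gene past the size, with a median of 0.026.

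Several families of chromatin regulators are long genes, and fewer of their members were lower once the length trend was removed. Fewer were also lower in the Dex pair, whose counts here are without adjustment. The counts of lower members are to be read beside the 8.77% of all genes before and 7.10% after adjustment. Histone acetyltransferases had 8 of 17 members lower and none higher, with a median of -0.74. After adjustment 2 were lower, with a median of -0.43. In the Dex pair 1 was lower before adjustment (median -0.52, adjusted -0.30). Kat2b, also named PCAF, had 6526 and 2099 reads (log2 ratio -1.61, adjusted -1.40), and Crebbp, the CBP coactivator, 3760 and 1480 (-1.32, adjusted -0.90). CHD and ISWI remodelers went from 5 of 20 lower to 1, Srcap (-1.86, adjusted -1.66), with medians of -0.55 and -0.17, and had 2 lower in the Dex pair. Histone lysine demethylases went from 3 of 18 to 0, with medians of -0.53 and -0.21, and lysine methyltransferases from 4 of 29 to 0, with medians of -0.33 and -0.014. In the Dex pair 1 demethylase and no methyltransferase was lower. Nsd1 was the methyltransferase that rose (204 and 450 reads, 1.16). Of nuclear receptor coactivators and corepressors 7 of 22 were lower before and 4 after adjustment, Ncoa7 (-2.10), Rcor1 (-1.45), Lcor (-1.38) and Ncoa2 (-1.32), and 3 were lower in the Dex pair. In the SWI/SNF complex Pbrm1 (-1.52) and Arid2 (-1.44) stayed lower, and in the Polycomb group Bmi1 fell from 22328 to 6984 reads (-1.65). All 13 cohesin genes, which encode the ring that holds sister chromatids and its loaders, had a log2 ratio below 0 (median -0.49), 12 after adjustment (median -0.30), and none passed the size after it. Mediator subunits (median 0.077, 31 genes) and the 307 C2H2 zinc finger genes (median -0.088, 10 higher and 14 lower) lay near all genes.

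Lists of RNA processing mostly had medians with small shifts, while single genes moved by more. Neuronal exon regulators had the lowest median before adjustment (-0.49, 21 of 25 below 0). After adjustment it was -0.18, with 15 below 0. Counts of members in this paragraph stand beside 7.00% of all genes higher and 8.77% lower, and these lists are short. Among SR splicing factors and hnRNP proteins no gene passed the size. The adjusted medians were -0.19 over 10 and -0.27 over 20 genes, and 18 of the 20 hnRNP genes were below 0 before and after adjustment. CLK, SRPK and DYRK kinases, which phosphorylate SR proteins, had an adjusted median of -0.35 with none past the size. With annotated transcript length in place of mappable length, the adjusted median of the hnRNP proteins was -0.11 and that of the kinases -0.24. Of 25 neuronal exon regulators, Ptbp2 fell from 15690 to 4671 reads (log2 ratio -1.73, interval -1.77 to -1.68) and Mbnl2 fell by 1.30, while Elavl4, a neuronal Hu protein, rose by 0.83. Srrm4, the main activator of microexons in neurons, named here because of the exons described below, had 3855 and 3124 reads (-0.28, adjusted 0.14). Upf2 (-1.34) and Smg6 (-1.08) were lower among 16 decay factors, and the deadenylases Cnot6 (-1.91) and Cnot6l (-1.61) among 32 genes of CCR4-NOT, the exosome and exonucleases. Lsm12 (-1.26) and Prpf18 (-1.21) were lower in the core of the spliceosome and its relatives.

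The medians of these lists of growth and stress mostly lay near that of all genes. Of 43 genes of MCM, ORC and replication factors 1 passed the size, Gins2 with 1.02, and the median was 0.0097. Cyclin D3 (Ccnd3) rose from 1999 to 6112 reads (1.63), and the median of 30 cyclins, CDKs and mitotic genes was -0.082. Of 31 genes of the integrated stress and unfolded protein responses none was higher and 2 were lower, among them Eif2ak3 (-1.25). Of 19 targets of p53 1 was higher and 2 were lower, beside 7.00% and 8.77% of all genes. In mTOR and PI3K signalling 7 of 24 genes were lower and none higher (median -0.26). After adjustment 4 were lower, beside 7.10% of all genes, and the median was -0.0016. In the Dex pair 5 were lower before adjustment. Igf2r, the receptor that clears IGF2, went from 761 to 48 reads, a fall to 6.52% (-3.94, interval -4.42 to -3.54). The insulin receptor substrates Irs2 and Irs1 fell by 1.35 and 1.29.

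Neuronal genes moved in both directions, as did all genes, of which 7.00% were higher and 8.77% lower. The counts below stand beside these shares, and those of the protocadherins lie below them. Catecholamine synthesis split: Dbh, which makes noradrenaline from dopamine, had 529 and 2088 reads (2.001, interval 1.86 to 2.14), and Th, the first enzyme of the pathway, 303 and 124 (-1.26, interval -1.58 to -0.96). Among the transcription factors of this lineage, Mycn rose by 1.24 and Gata3 by 1.16, and Gata2 fell by 1.34 from 16171 to 6278 reads. Over the 21 sympathetic and catecholamine genes, 4 were higher and 2 lower. Neurite growth genes were 3 higher and 7 lower of 26. Rnd2, a small GTPase, fell from 186 to 49.8 cRPKM (-1.87), Camk2b fell by 2.31 and Hap1 by 1.74. Nrn1, neuritin, rose by 1.16. In potassium channels 6 of 40 were higher and 4 lower, with Kcnj14 (1.51) and Kcnn1 (1.48) higher and Kcnk1 (-1.75) lower. Of 24 protocadherins, adhesion proteins that differ from neuron to neuron, 1 was higher and none lower, with 19 above 0. Their median was 0.26 (adjusted 0.34), and in the Dex pair 0.53 (adjusted 0.61). Protocadherins of a cluster share exons or close sequence, so that their separate reads are uncertain. Among guidance genes Slit1 fell by 1.51 and the receptor Nrp1 rose by 0.90. Plxnc1, a semaphorin receptor, fell from 10526 to 2352 reads (-2.14), and Nrxn3 from 144 to 23 (-2.58, interval -3.33 to -1.98). Scg2 (-1.30) and Vamp2 (-1.002) were lower and Vti1b (1.64) was higher in vesicle fusion.

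Of the signalling pathways, hedgehog and ciliary transport had the lowest length-adjusted median. In vertebrates the hedgehog signal passes through the primary cilium, which intraflagellar transport builds. Of 30 genes, 10 were lower and none higher (median -0.54), beside 8.77% and 7.00% of all genes. After adjustment 6 were lower and none higher (median -0.45, 25 below 0), beside 7.10% and 6.01% of all genes. In the Dex pair 7 were lower before adjustment (median -0.42, adjusted -0.31). Ptch1, the hedgehog receptor and a target of the pathway, had 2569 and 754 reads (-1.75, interval -1.87 to -1.63). Bbs9 fell by 1.28, Pkd2 by 1.40 and Ift122 by 1.20. In the Notch pathway 7 of 29 were lower and 2 higher (median -0.28, adjusted -0.24), with Pofut1 higher (1.19) and Dtx1 lower (-1.03). The adaptor Numb (1597 and 920 reads, -0.77, adjusted -0.91) passed the size only after adjustment. Wnt genes had a median of -0.25, and 0.010 after adjustment. Tle6 and Tle2, co-repressors of the Groucho family, fell by 2.46 and 2.11, and the receptors Fzd2 and Fzd9 rose by 1.82 and 1.79. Fst, follistatin, which binds activin, rose from 539 to 2230 reads (2.07), and the receptor Bmpr2 fell by 1.59. Of 48 Rab GTPases, which direct membrane traffic, 4 were higher and 4 lower, near the 7.00% and 8.77% of all genes. Rab26 stood at 1.91 and Rab2a at -1.22.

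Beyond the lists, where cRPKM averaged 2 or more over both libraries, the 12 largest rises were Myl9, Actg2, Acta2, Prnd (log2 ratio 3.75), Acta1, Tcn2 (3.01), Nme4 (2.93), Glipr1 (2.82), Tgfb1i1, Tsacc (2.61), Tmsb15b1 (2.43) and Cnn2. After adjustment the same 12 genes led. Tmsb15b1 rested on 7 and 41 reads over 69 mappable positions. Tcn2, transcobalamin 2, carries vitamin B12, and Nme4 is a mitochondrial nucleoside diphosphate kinase. The 12 largest falls included Vwa5b1 (6615 and 886 reads, -2.88), Grap2 (1389 and 203, -2.75), an adaptor of immune receptor signalling, Tle6, Rmnd5a (-2.42), the transcription factor Myb (5724 and 1111 reads, -2.34), Asic4 (-2.14), Plxnc1, Arpp21 (-2.13), Erap1 (-2.11), a peptidase that trims antigens, and Ncoa7. ENSMUSG00000047923 (-2.41) and Gm17555 (-2.28) completed them, with 86 and 48 mappable positions. Rmnd5a, Plxnc1, Erap1 and Ncoa7, all of 3966 nt or more, left the 12 largest falls after adjustment, and Ppp2cb (13825 and 3317 reads, adjusted -2.22), Psmb8, Bckdhb (-2.15) and Irf2 took their place. Each of the named genes of this paragraph moved in the same direction in the Dex pair.

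Splicing was compared in 57183 events of cassette exons, microexons (cassette exons of 3 to 15 nt) and alternative 3′ and 5′ splice sites (Alt3 and Alt5). An event passed at a difference of 15 PSI or more (ΔPSI, siArglu1 minus siControl), again by size only, which 1118 events did (1.96%), 484 higher (0.846%) and 634 lower (1.11%). The deposited scores grade coverage from N to SOK. Where both vehicle libraries scored OK or SOK, 46703 events remained, of which 580 passed (1.24%), 233 higher and 347 lower, and 518 of the 580 moved in the same direction in the Dex pair, of which 222 passed 15 PSI there as well. A further 4 passed it in the opposite direction. By type, 289 simple cassette exons passed (102 higher and 187 lower), 160 complex cassette exons (84 and 76), 51 Alt3 (22 and 29), 50 Alt5 (24 and 26) and 30 microexons (1 and 29). The descriptions below use these well covered events unless stated otherwise.

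The length of the exon went with the direction. PSI near 0 or 100 leaves little room to move, so exons with a PSI of 5 to 95 in siControl Veh were taken. Control PSI still differed by length within this range. Its median was 50 at 3 to 15 nt and 36.6 at 16 to 27 nt, but 81 at 51 to 100 nt and 85.6 at 101 to 200 nt. Over exons of any length, 23.7% passed where control PSI was over 25 to 75, and 3.71% where it was over 75 to 95. Of 82 such exons of 3 to 15 nt, 31 passed (37.8%), all of them lower. Of 117 exons of 16 to 27 nt, 33 passed (28.2%), 31 lower and 2 higher. Of 440 exons of 28 to 50 nt, 51 passed (11.6%), 38 lower and 13 higher. Of 2039 exons of 51 to 100 nt, 151 passed (7.41%), 76 lower and 75 higher, and of 2445 exons of 101 to 200 nt 141 passed (5.77%), 67 lower and 74 higher. The share with any decrease was 77.4% of the 199 exons up to 27 nt and 43.9% of the 5014 exons over 50 nt, and the median ΔPSI was -8.41 and 0.83. In the Dex pair the medians were -6.81 and 0.47. Exons whose length is a multiple of 3, which keep the reading frame, passed more often (10.8% of 2550, 190 lower and 86 higher) than the others (5.64% of 3103, 76 lower and 99 higher). Their median control PSI was 75.1 and 85.7. How far the frame, the length of the exon and its control PSI overlap in these differences was not tested.

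**Figure D4:**
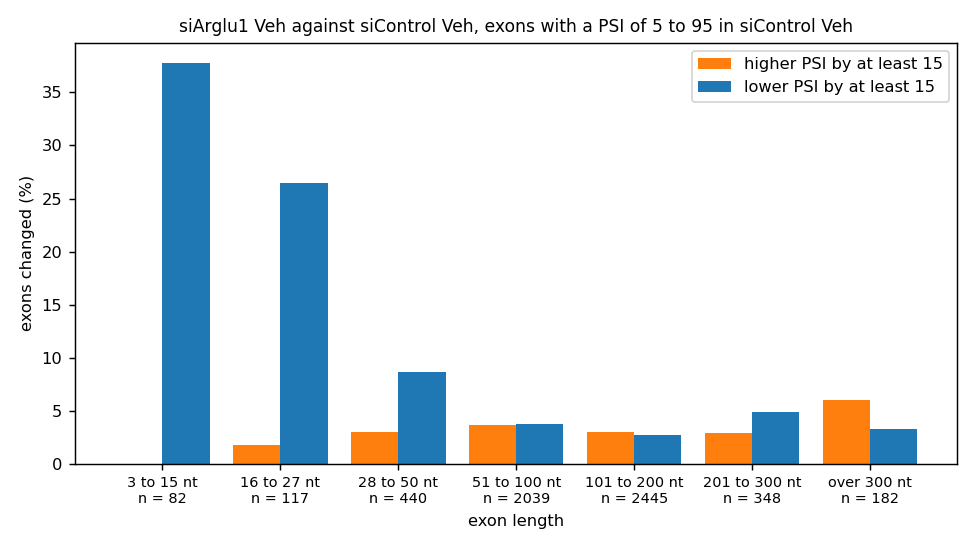
Percent of exons (vertical axis) whose PSI was higher (orange) or lower (blue) by at least 15 in siArglu1 Veh than in siControl Veh, by exon length (horizontal axis, with the number of exons), for exons that scored OK or SOK in both libraries and had a control PSI of 5 to 95. Blue bars are highest for exons of 3 to 15 nt, where 31 of 82 were lower and none was higher, and both bars are of like height from 51 nt to 200 nt.

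The largest falls among short exons are given here with what some of the genes encode. The 6-nt microexon of Hook3 (mm9 chr8:27156378-27156383), a linker of dynein, was included at a PSI of 86.9 under siControl and 39.8 under siArglu1. The 9-nt microexon of Nbea (chr3:55797970-55797978), neurobeachin, went from 83.2 to 42.2, and the 15-nt microexon of Rapgef6 (chr11:54465251-54465265), an exchange factor for Rap GTPases, from 45.8 to 7.07. A 27-nt exon of Daam1 (chr12:73059734-73059760), a formin that polymerizes actin, went from 58.9 to 15.7, and a 24-nt exon of Clasp2 (chr9:113787868-113787891), which binds the plus ends of microtubules, from 68.0 to 25.6. A 36-nt exon of Elmo2 (chr2:165129166-165129201), which acts with DOCK proteins on Rac, went from 65.7 to 15.03, the largest fall of all. Named after their values were seen, a 27-nt exon of Snx14 went from 62.2 to 21.8 and a 9-nt microexon of Fryl from 83.8 to 45.5. In the Dex pair each of these exons was lower after knockdown too. The microexon with a higher PSI was that of Trpm2, with 4.13 and 23.8, and its PSI in the Dex pair was 6.33 and 6.61.

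**Figure D5:**
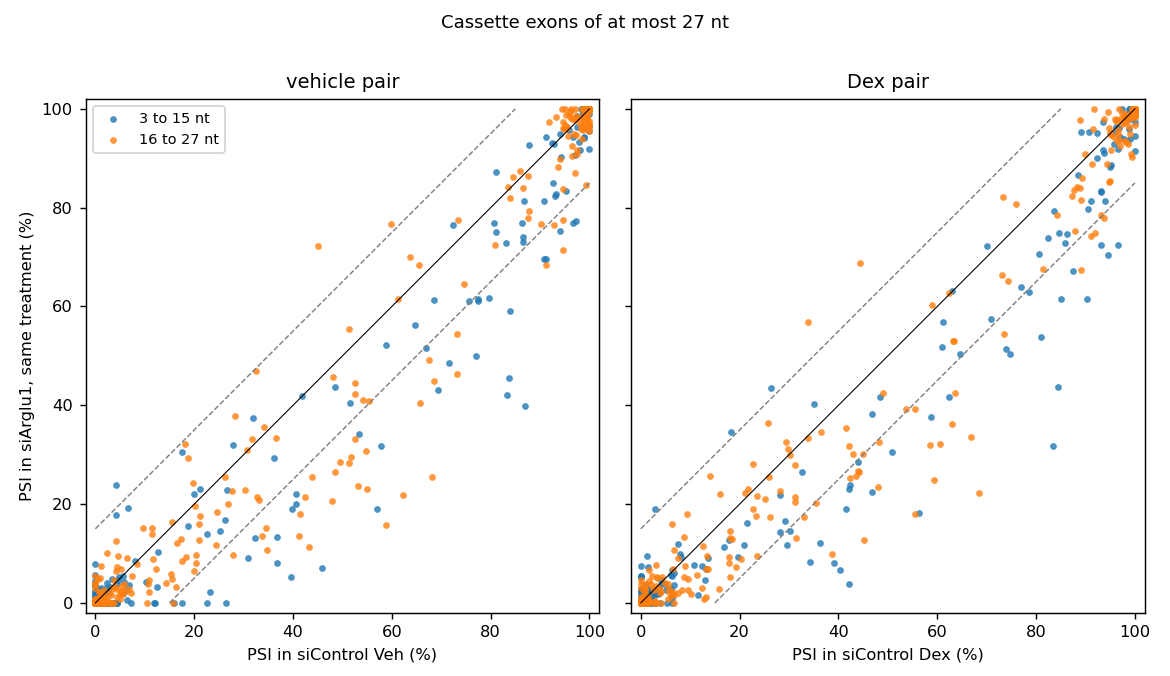
PSI in siArglu1 (vertical axis) against PSI in siControl (horizontal axis), in percent, for cassette exons of at most 27 nt in the vehicle pair (left) and the Dex pair (right). Blue points are exons of 3 to 15 nt and orange points exons of 16 to 27 nt, the solid line marks equal values and dashed lines a difference of 15. Of the exons with a control PSI of 5 to 95, 62 lie under the lower dashed line in vehicle and 2 above the upper one, and 39 lie under it in both pairs.

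Of the 8 largest rises in PSI, 7 were cassette exons of 41 nt or more. The largest was an Alt3 site. This Alt3 site of Cask, a scaffold protein of the synapse, went from 12.2% of 156 junction reads (exact interval 7.49% to 18.4%) to 51.9% of 133 (43.0% to 60.6%), and in Dex from 16.7 to 48.8. A 273-nt exon of Smarcad1 (chr6:64993830-64994102), a remodeler, went from 23.9 to 60.1, a 47-nt exon of Agbl5 from 49.5 to 84.96, a 41-nt exon of BC024814 from 34.7 to 68.3, an 85-nt exon of Osbpl6 from 49.1 to 82.5, and a 244-nt exon of Unk, an RNA-binding zinc finger protein, from 9.55 to 42.6. Exons of Ctso (32.7 to 65.5) and Fam151b (63.6 to 95.8) completed the 8 largest rises. Not all large differences recurred. A 145-nt exon of Heatr7a had 100 in siControl Veh and 51.7 in siArglu1 Veh, but 97.0 and 100 in the Dex libraries, and an Alt3 site of Ptma had 100 and 59.3 against 50.1 and 76.6. Of complex cassette exons, a 36-nt exon of Epb4.1l3, a linker of membrane and cytoskeleton, fell from 62.0 to 33.7. Of Alt3 sites, that of Rgs3 rose (8.24 to 40) and that of Ttc14 fell (91.3 to 61). Of Alt5 sites, those of Entpd4 (16.9 to 47.6), Pi4ka (41.5 to 71.2) and Fbxo44 (37.8 to 63.5) rose most, and those of Eps15 (58.0 to 21.3), Ccnt2 (72.2 to 45.1) and Zc3h11a (42.3 to 17.1) fell most.

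The gene lists were also read for splicing, in all 57183 events. A changed event was found in 918 of the 8980 genes with an event (10.2%). Of 10 giant linkers of the cytoskeleton 5 had one, and of 196 C2H2 zinc finger genes 33 (16.8%). Genes with more events have more chances to hold one, and by events the shares were 3.87% and 5.23% beside 1.96% of all. None was found in 10 SR splicing factors, 8 interferon-stimulated genes, 14 targets of p53, 25 stress response genes or 29 cyclins, CDKs and mitotic genes, and 1 in 68 oxidative phosphorylation genes. The following exons were chosen after their values were seen, because their use is well described. Tpm1 has a pair of 76-nt exons used in place of each other, and one went from 66.6 to 40.9 while the other went from 34.4 to 59.4. Snap25, which drives vesicle fusion, has a pair of 118-nt exons of this kind, with 24.7 to 9.62 and 68.9 to 87.6. The 34-nt exon of Ptbp2 (chr3:119427530-119427563), whose skipping shifts the frame, went from 90.3 to 62.1, in the same library in which Ptbp2 reads were 30.2% of siControl Veh. The 93-nt exon of Mapt, which adds a microtubule-binding repeat to tau, went from 17.98 to 39.2. The 21-nt exon of Eif4g1 (68.4 to 44.9) and the 54-nt exon of Mbnl1 (84.8 to 59.6) were lower. Each of these exons moved in the same direction by at least 14 PSI in the Dex pair.

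Of the genes that the study names for vehicle knockdown, Bin1, which bends membranes, had 2 exons with lower PSI, of 108 nt (69.9 to 29.3) and 93 nt (61.9 to 27.5), and a log2 ratio of 0.42. The 579-nt exon of Ptprf went from 76.7 to 95.6, with a log2 ratio of 0.018 (adjusted 0.45). For Numb, Tnik and Ptprf the study reports more skipping of an exon after knockdown, measured also by RT-PCR. Whether its exons are those given here was not determined. Numb had an 85-nt exon with 45.5 and 61.9 and a 147-nt exon with 42.4 and 26.0, the latter with a score of LOW in siControl Veh and VLOW in siArglu1 Veh. Tnik, a kinase of the Wnt and Rap pathways, had an 87-nt exon with 62.1 and 37.5 (VLOW in siArglu1 Veh) and a 24-nt exon with 38.2 and 57.0 (N in siArglu1 Veh, the lowest score), and its reads fell to 34.4% (log2 ratio -1.54). Lpin1, a phosphatidate phosphatase, had a 144-nt exon with 9.09 and 33.3, for which the score in siArglu1 Veh was N as well, and its reads fell by 1.16 on the log2 scale. Brwd3 held no event past 15 PSI, and its log2 ratio of -0.51 was 0.082 after adjustment. Nr3c1, the glucocorticoid receptor, had 2904 and 2297 reads (-0.32, adjusted 0.039).

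Expression and splicing were last compared gene by gene. Of 8896 genes measured in both ways, 971 passed the size of expression (10.9%) and 906 had a changed event (10.2%), and 136 did both. This is 14% of the genes with an expression difference and 15% of those with a splicing difference. After length adjustment, 692 genes passed the size of expression (7.78%), and 82 did both, 11.8% and 9.05% of the respective genes. Genes with a changed event were longer (median 3687 nt) than those without (2745 nt). Their median log2 ratio was -0.21 against 0.013 without, and -0.082 against 0.0083 after adjustment.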

How the data were processed

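Reads per gene (counts, not normalized) and cRPKM were deposited by the authors for 22667 genes, with NA reads taken as 0 and no cRPKM for 1114 genes. The authors made the cRPKM, an RPKM per mappable position. The deposited splicing tables give the PSI as a percent and a coverage score in words. The submitters' processing notes name Bowtie and mm9, without a version. The authors' 2 unnamed columns of cRPKM ratios (Dex over Veh) were not used.

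Reads were scaled with TMM (edgeR 4.0.16, R 4.3.3) and log2 CPM taken with a prior count of 1. Depth was 66074574 to 86541444 reads on genes per library. Mappable length was computed from reads and cRPKM. The trend on log2 length was removed by lowess (statsmodels 0.14.6, span 0.3, 3 iterations). GC percent, exons, coding length and span came from GENCODE M21 by Ensembl identifier (98.6% of genes matched). Promoters came from RefSeq (GRCm38.p6), which was not mixed with mm9. Where an alternative site event lists several sites, the one that moved most stood for it and the reference site was left out. Events needed a PSI in 4 libraries and LOW or better in 3. No test was made, since each group had 1 library. Scripts were tested on simulated data.

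The lists and rules were chosen with earlier results of these data known. Named were the genes the study names, the 12 largest rises and falls at a mean cRPKM of at least 2, the 4 members of each list with the largest adjusted value among those with at least 100 reads in vehicle, all smooth muscle genes measured, and the 8 largest rises and falls in PSI with the 3 largest of each type. A few genes that these rules name and 1 gene list are not reported here.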

Additional observations from a re-analysis of the deposited data

Results flagged for a closer look

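One gene, A3galt2, passed 0.81 in opposite directions in the vehicle and the Dex pair. In vehicle its reads were 33 without and 14 with the knockdown, a log2 ratio of -1.164 with a counting interval from -2.23 to -0.27, and in Dex they were 20 and 44, a log2 ratio of 0.8183. The difference between the pairs was not tested.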

How the results depend on the processing

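No paired analysis was made, because each group has 1 library. A fit over all 4 libraries would assume the same effect of the knockdown with and without Dex, and was not used. With DESeq2 size factors (version 1.42.0), total reads, a prior count of 5, at least 100 reads or the deposited cRPKM, the counts of higher and lower genes stayed within 1.5 times of 875 and 1096. Without a minimum of reads 1887 were higher and 2431 lower, at a threshold of 1 542 and 689, and at 1.5 160 and 227. The length-adjusted counts stayed within 1.5 times of 750 and 886 under every alternative tried, including 2 chosen after seeing the data (annotated transcript length, and GC percent after length). Removing the length trend moved the lists with a median at least 0.25 from that of all genes to 7 below and 3 above, and the genes changed in both ways to 82. Relative to all genes, the median of ribosomal proteins became -0.017 and that of the Wnt pathway 0.008, each reversed. With OK coverage in both vehicle libraries 233 events were higher and 347 lower, without a coverage minimum 2625 and 2946, at 25 PSI 87 and 131, and at 10 PSI 1086 and 1430. Fewer or more features pass by construction of these settings. Few reads widen the counting intervals of genes such as Cnn1, Irf7 and Parp14.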
